A study of Mus musculus with 4 samples.

Results

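Runx1, Runx3 and 4 genes of their cofactors (Cbfb, Runx1t1, Cbfa2t2 and Cbfa2t3) were examined for CpG sites whose 5-methylcytosine (5mC) or 5-hydroxymethylcytosine (5hmC) level differed between wild-type and HDAC6 KO cells. The 6 genes were chosen by name and function with earlier results of these data known, and a site was counted if it lay in the gene body or within 2 kb of either end on GRCm38. These are 6 of the 21883 protein-coding genes of the RefSeq table, and they held 28 of the 53206 listed 5mC sites and 57 of the 71864 listed 5hmC sites. The cells were mouse bone marrow LSK cells, which are lineage-negative, high in Sca-1 and positive for c-Kit, and contain the blood stem cells and earliest progenitors. Wild-type (WT) and HDAC6 KO mice each gave 1 whole-genome bisulfite library and 1 oxidative bisulfite library, so each of the 4 groups is 1 library and no value has a replicate check. The titles number the bisulfite libraries 1 and call them 5mC, and number the oxidative libraries 2 and call them 5hmC. Whether the 2 assays of a genotype used the same cells was not given. HDAC6 is an X-linked lysine deacetylase that works largely in the cytoplasm. Strain, sex, age, the knockout allele and any pooling of animals were not given in the sources used here.

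RUNX proteins are transcription factors that bind DNA through a Runt domain and pair with CBF-beta, the product of Cbfb, which does not touch DNA itself but strengthens the binding. Runx1 is needed for blood stem cells to form in the embryo and is among the genes most often rearranged in acute leukaemia, while Runx3 acts in T cells, natural killer cells and other immune lineages. Runx1t1 (ETO), Cbfa2t2 (MTGR1) and Cbfa2t3 (ETO2) encode a family of corepressors that recruit histone deacetylases. Runx1t1 is the leukaemic fusion partner of RUNX1, and Cbfa2t3 is part of complexes that hold erythroid and megakaryocyte genes in check. 5mC is the mark laid down by DNA methyltransferases, and 5hmC is what TET enzymes make from it.

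Runx1 and Runx3 each have a distal and a proximal promoter that give different protein starts. Their RefSeq windows, from 250 bases before to 50 after each start on GRCm38.p6, are printed because every listed position that could be read in such windows was a CpG and the promoters differ widely in CpG number. Capitals mark each CpG. The Runx1 distal window is chr16:92826025-92826324 and its proximal window chr16:92697280-92697579, both on the minus strand. The Runx3 distal window is chr4:135120395-135120694 and its proximal window chr4:135152295-135152594, both on the plus strand.
Runx1 distal: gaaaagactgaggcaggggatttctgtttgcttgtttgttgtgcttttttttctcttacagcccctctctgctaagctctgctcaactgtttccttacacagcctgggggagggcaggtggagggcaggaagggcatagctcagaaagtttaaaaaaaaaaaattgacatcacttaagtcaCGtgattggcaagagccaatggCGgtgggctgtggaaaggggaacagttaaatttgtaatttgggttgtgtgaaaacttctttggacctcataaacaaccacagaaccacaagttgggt
Runx1 proximal: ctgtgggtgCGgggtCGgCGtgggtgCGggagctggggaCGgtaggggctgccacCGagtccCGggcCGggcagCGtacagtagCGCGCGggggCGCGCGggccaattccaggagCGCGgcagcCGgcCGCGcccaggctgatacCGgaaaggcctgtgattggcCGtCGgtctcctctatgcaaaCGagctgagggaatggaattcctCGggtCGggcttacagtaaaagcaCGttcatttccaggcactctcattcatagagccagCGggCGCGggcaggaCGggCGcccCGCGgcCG
Runx3 distal: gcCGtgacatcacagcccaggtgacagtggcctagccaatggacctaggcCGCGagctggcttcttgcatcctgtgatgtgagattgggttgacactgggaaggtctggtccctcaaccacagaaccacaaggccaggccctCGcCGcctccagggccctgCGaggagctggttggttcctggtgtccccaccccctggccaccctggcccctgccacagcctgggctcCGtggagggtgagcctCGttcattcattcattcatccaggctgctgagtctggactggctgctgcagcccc
Runx3 proximal: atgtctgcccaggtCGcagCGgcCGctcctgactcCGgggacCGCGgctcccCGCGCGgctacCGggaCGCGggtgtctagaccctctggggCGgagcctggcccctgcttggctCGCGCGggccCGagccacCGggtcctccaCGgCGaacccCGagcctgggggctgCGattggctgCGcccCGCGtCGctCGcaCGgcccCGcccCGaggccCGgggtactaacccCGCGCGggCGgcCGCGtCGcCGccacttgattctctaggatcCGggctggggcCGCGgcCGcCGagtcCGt
The distal windows held 2 CpGs at Runx1 and 8 at Runx3, and the proximal windows held 35 and 45. The median over 32817 RefSeq windows was 7. Both distal windows contained an identical stretch of 18 bases, shown here with each copy of ACCACA, the reverse complement of the RUNX-binding core TGTGGT, in capitals.
Shared distal stretch: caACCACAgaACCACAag
This stretch lies at chr16:92826031-92826048 in Runx1, past the start, and at chr4:135120509-135120526 in Runx3, before the start. It occurred in 4 of the 32817 windows, those of Runx1, Runx2, Runx3 and Gm16225, a long non-coding gene beside Runx3. At least 1 copy of TGTGGT or ACCACA stood in 16.8% of all windows and at least 2 copies in 1.78%. A match of letters is a description and does not show that a factor bound.

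None of the CpGs in the promoter windows of the RUNX genes or their cofactors was listed for either mark. The 8 windows available, which cover 5 of the 6 genes, held 234 CpGs in all. Over all windows, 1.21% held a listed 5mC site and 2.23% a listed 5hmC site, so an absence from 8 windows is what most windows show. CpGs that are not in the tables may have been unchanged, thinly covered or untested, and their levels were not analysed here.

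Across the 6 genes the listed sites were unevenly spread, with most at Runx3, Cbfa2t3 and Runx1, and none at Cbfa2t2. A listed 5mC site was found at 5 of the 6 genes, against 47.1% of all protein-coding genes and 75.8% of those of 40 kb or more, the length range of the 6 genes. A listed 5hmC site was found at 4 of the 6 genes, against 53.7% and 78% in the same gene classes, so having a listed site is common among genes of this length. Per 100 kb of gene and margin, the 5mC count was 16.3 at Runx3, 7.79 at Cbfb, 7.67 at Cbfa2t3, 2.62 at Runx1 and 1.28 at Runx1t1, beside 2.40 pooled over all protein-coding genes. For 5hmC it was 32.6 at Runx3, 24.3 at Cbfa2t3, 7.00 at Runx1 and 1.28 at Runx1t1, beside 3.67 pooled. Runx3 and Cbfa2t3 thus carried listed sites several times as densely as the pooled genes in both marks. CpG density and read coverage along the genes are not known from the tables, and their part in these densities was not tested.

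**Figure D1:**
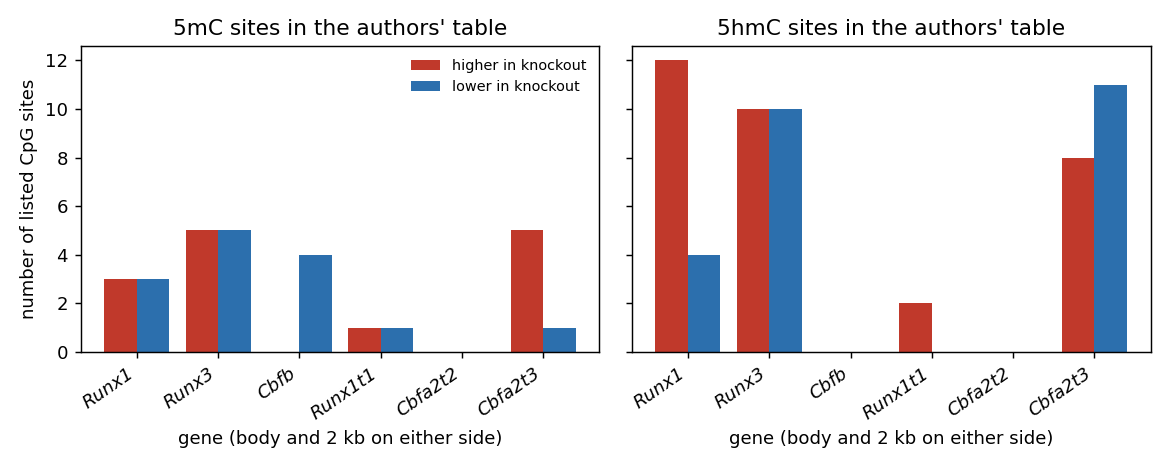
Number of CpG sites in the authors' deposited table (vertical axis) at each of the 6 genes with 2 kb on either side, for 5mC on the left and 5hmC on the right. Red bars count sites higher and blue bars sites lower in HDAC6 KO; Runx1 stands at 12 higher and 4 lower for 5hmC, Cbfa2t3 at 8 and 11, and Cbfa2t2 has no bar.

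Direction was mixed. For 5mC, 14 of 28 sites were higher and 14 lower in HDAC6 KO, or 50% higher (95% exact binomial interval 30.6 to 69.4%), beside 40.3% of all listed 5mC sites. For 5hmC, 32 of 57 sites were higher and 25 lower, or 56.1% (42.4 to 69.3%), beside 64.4% of all listed 5hmC sites. Both intervals include the share of the whole table. They cover counting error only and take the sites as separate, though close sites share reads. The median difference, HDAC6 KO minus WT, was 4.31 percentage points for 5mC and 20.69 points for 5hmC, beside -23.26 and 22.22 points over the whole tables. The 5mC median is the midpoint between a site at -10.61 and a site at 19.23 points. It reflects the even split by direction and is not the size of a typical difference. The 5hmC median depends on the split too, since no difference at the 57 sites lies between -17.5 and 16.33 points. Regardless of direction, the median size was 30.41 points for 5mC and 28.07 points for 5hmC, beside 36.15 and 29.17 points over the whole tables. A 5hmC level of 0% in WT was listed at 20 of the 57 sites (35.1%) and in HDAC6 KO at 18 (31.6%), beside 52.3% and 30.01% of all listed 5hmC sites. A level averages over all cells of the sort, so a shift in the mix of cells and a shift within cells cannot be told apart.

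The authors' own p-values rest on 1 library per genotype and assay, and each listed site already has p under 0.01 and a difference of at least 10 points. In the authors' deposited table, q was 1 at all 28 5mC sites of these genes, and at 49 of the 57 5hmC sites. A q under 0.05 was given at 0 of the 28 and 1 of the 57 sites, where 0.175% and 1.08% of all listed sites had one. The single site is in Cbfa2t3. No read depth is given, so a level of 0% or 100% can rest on few reads.

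Runx1, whose gene body spans chromosome 16 from 92601466 to 92826074 on the minus strand, had 6 listed 5mC sites, 3 higher and 3 lower. The authors' deposited table gave 100% in WT and 16.7% in HDAC6 KO at position 92803154 (p = 0.00097), which lies 22920 bp past the distal start. At position 92813937, 12137 bp past that start, its 5mC levels were 82.8% in WT and 50% in HDAC6 KO in the authors' deposited table (p = 0.00843). These lower sites were the 2 nearest to the distal promoter. The intron between both promoters is known to hold an enhancer active in blood stem cells, but its coordinates are not in the sources used here, so its place relative to these sites was not examined.

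The third lower 5mC site of Runx1, at position 92697837, was the listed site nearest to a promoter of the gene, 508 bp upstream of the proximal start. The authors' deposited table gave 13.5% 5mC there in WT and 1.27% in HDAC6 KO (p = 0.00654). Its WT level was the lowest of the 6. On the other side of this start, 2615 bp past it at position 92694714, the authors' deposited table gave 79.3% in WT and 100% in HDAC6 KO (p = 0.00773). Position 92766837, which also lies in the long non-coding gene Gm30281, had 80.8% and 100% in the authors' deposited table (p = 0.00796). The largest gain was at position 92649350, 47979 bp past the proximal start, with 43.8% and 100% 5mC in the authors' deposited table (p = 0.000218).

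In 5hmC, Runx1 was higher in HDAC6 KO at 12 of its 16 listed sites. The 12 gains ranged from 20.69 to 46.73 points and the 4 losses from 26.92 to 42.86 points. Position 92823191, 2883 bp past the distal start, had the largest difference, with 9.52% in WT and 56.3% in HDAC6 KO in the authors' deposited table (p = 0.00342). Next to it, position 92820788 had 5% and 42.9% 5hmC in the authors' deposited table (p = 0.00887). With position 92819020 these made a run of 3 higher sites over 4.17 kb close to the distal start.

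Farther in, losses followed. The authors' deposited table gave 62.5% in WT and 20.8% in HDAC6 KO at position 92806225 (p = 0.00766), the highest WT 5hmC level of the gene. That site and its lower neighbour at position 92810673 lie between the 2 lower 5mC sites at 92803154 and 92813937. Within 10.8 kb, then, all 4 listed CpGs of Runx1 were lower in HDAC6 KO, 2 in 5mC and 2 in 5hmC, and no CpG among them was listed for both marks. The stretch was picked out after its values were seen.

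Upstream of the proximal promoter, 3 5hmC sites lay 1233 to 2499 bp before the start, and all 3 were higher. The authors' deposited table gave them 0 to 2.7% in WT and 20.7 to 25.7% in HDAC6 KO. These 3 sites were singled out for their place after their values were seen. They belong to a run of 5 higher sites over 45.4 kb that spans the proximal start. Also in that run, position 92654403 had 4.35% and 42.9% 5hmC in the authors' deposited table (p = 0.00704). At position 92720612 the authors' deposited table gave 3.45% in WT and 39.1% in HDAC6 KO (p = 0.00284). Of the 10 Runx1 5hmC sites that the naming rule did not pick, 8 were higher, at 0 to 5% in WT and 20.7 to 30.8% in HDAC6 KO in the authors' deposited table. The other 2 were lower, at 26.9% and 35% in WT and 0% in HDAC6 KO in the authors' deposited table.

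Runx3, on chromosome 4 from 135120645 to 135177990 on the plus strand, held 10 5mC sites and 20 5hmC sites, with as many higher as lower ones in each table (5 and 5 for 5mC, 10 and 10 for 5hmC). No 5mC difference there was smaller than 10.61 or larger than 60.87 points. The stretch between its starts, 31.9 kb of a gene of 57.35 kb, held 8 of the 10 5mC sites and 12 of the 20 5hmC sites. Among the counted sites, 5mC was lower in HDAC6 KO at the first 3 past the distal start and higher at the last 3 before the proximal start. Both runs were picked out after their values were seen. The first 3, a run over 7.35 kb, were all lower by 36.51 to 39.7 points. A 5mC site outside the margin, 3.45 kb before the gene, lay nearer to the distal start and was higher in HDAC6 KO. It had 54.6% in WT and 83.7% in HDAC6 KO in the authors' deposited table. In the authors' deposited table position 135128470 had 70% 5mC in WT and 30.3% in HDAC6 KO (p = 0.00241).

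The 3 sites that precede the proximal start of Runx3, a run over 5.96 kb, were all higher in 5mC by 27.61 to 47.25 points. The authors' deposited table gave 24% in WT and 65% in HDAC6 KO at position 135145459 (p = 0.0076), 7086 bp before the proximal start. Past that start, position 135158058 had the largest 5mC difference of the gene, 39.1% and 100% in the authors' deposited table (p = 0.000243). The remaining site, which the naming rule did not pick, lies at position 135140875 and had 10.6% and 0% in the authors' deposited table (p = 0.00253).

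5hmC at Runx3 alternated in direction along the gene, and no run was longer than 3 sites. Immediately before the proximal start, at 1116 to 2160 bp, all 3 5hmC sites were lower, at 21.2 to 38.9% in WT and 0% in HDAC6 KO in the authors' deposited table. A little farther upstream the direction turned. The authors' deposited table gave 0% in WT and 38.7% in HDAC6 KO at position 135148818 (p = 0.000213, q = 0.557), and 0% and 40.9% at position 135149224 (p = 0.00149, q = 1). Past the proximal start, position 135158794 had 40% and 2.78% in the authors' deposited table (p = 0.000271, q = 0.634). The other 5hmC sites of Runx3 that are listed for 5hmC alone comprised 5 higher and 6 lower ones. In the authors' deposited table the higher ones were all at 0% in WT and at 17.7 to 31.3% in HDAC6 KO, and the lower ones were at 22.9 to 36.4% in WT and 0 to 4.65% in HDAC6 KO.

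Of the 5hmC sites upstream of the proximal start, the nearest 3 were thus higher in Runx1 and lower in Runx3. This number of sites was set after the values were seen, and the next 2 Runx3 sites, 3321 and 3727 bp upstream, were higher. The difference between the genes was not tested, and 2 of the 3 Runx3 sites are 9 bp apart and can share reads.

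**Figure D2:**
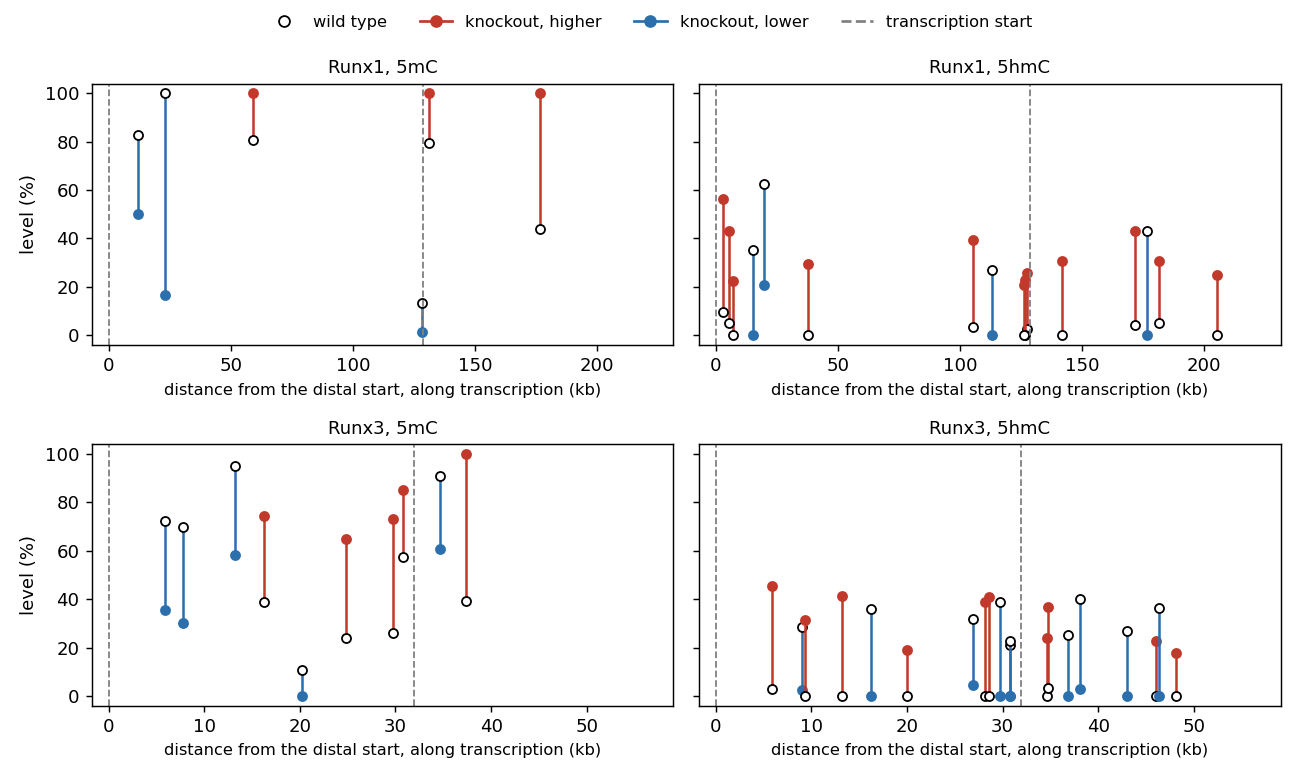
Levels in percent (vertical axis) at each listed CpG of Runx1 and Runx3 against its distance in kb from the distal start along transcription, with 5mC on the left and 5hmC on the right. Open circles are WT, filled circles HDAC6 KO (red higher, blue lower), with 1 library per genotype and assay, and dashed lines are transcription starts. In Runx3 the first 3 counted 5mC sites past the distal start are blue and the 3 just before the proximal start are red.

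Cbfb, the gene of the shared RUNX partner, had its 4 listed 5mC sites inside 36 bp and no listed 5hmC site. All 4 were lower in HDAC6 KO. They lie on chromosome 8, 34239 bp or more past the start of the gene, which runs from 105170674 to 105217989 on the plus strand. The authors' deposited table gave 27.5% in WT and 14.9% in HDAC6 KO at position 105204913 (p = 0.00424). At 20 bp from it, position 105204933 had 30.4% and 16.5% in the authors' deposited table (p = 0.00591). Both lie low in WT, unlike the next 2.
Position 105204943 had 86.8% and 58.7% in the authors' deposited table (p = 0.00697). The last of the 4, position 105204948, had 84.6% and 54.4% in the authors' deposited table (p = 0.00457). WT levels thus changed from about 30.4 to 86.8% over 10 bp, and the difference was in the same direction on either side of this step. CpGs this close can be read on the same molecules, so the 4 are not separate measurements.

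Among the ETO-family corepressor genes, Cbfa2t3 had many listed sites, Runx1t1 few and Cbfa2t2 none. Runx1t1, on chromosome 4 from 13742628 to 13895056, had 2 sites per mark. At position 13784441 the authors' deposited table gave 2.44% 5mC in WT and 28.6% in HDAC6 KO (p = 0.00237). At position 13875507 they were 100% and 53.9% in the authors' deposited table (p = 0.00455). Its 5hmC sites, at positions 13799736 and 13888276, were at 0% in WT and at 24.2% and 33.3% in HDAC6 KO in the authors' deposited table (p = 0.00166 and p = 0.00749). So 5mC differed in opposite directions at its 2 sites, and 5hmC was seen in HDAC6 KO alone at both of its sites.

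Cbfa2t2, on chromosome 2 from 154436098 to 154539356, had no listed site in the gene or within 2 kb. The nearest 5hmC site lay just beyond that margin, 2.94 kb before the gene at position 154433163. There the authors' deposited table gave 26.9% in WT and 1.82% in HDAC6 KO (p = 8.54e-05, q = 0.327). Other sites just outside the margin were a 5mC site 2.90 kb from the end of Runx1, at 53.6% and 5.56% in the authors' deposited table (p = 0.00112), a 5mC site 3.45 kb before Runx3, at 54.6% and 83.7% in the authors' deposited table (p = 0.00985), and a 5hmC site 3.40 kb before Cbfb, at 47.1% and 0% in the authors' deposited table (p = 0.00292). The site nearest to the margin on the inside was in the flank of Cbfa2t3, 276 bp beyond the 3′ end of the gene at position 122624860, with 17.5% and 0% 5hmC in the authors' deposited table (p = 0.00412). It was the only counted site outside a gene body.

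Cbfa2t3, on the minus strand of chromosome 8 from 122625136 to 122699332, had higher 5mC in HDAC6 KO at 5 of its 6 sites. All 5 lie past the proximal of its 2 starts, and the lower site lies between the starts. That lower site, position 122687867, had 86.7% in WT and 22.2% in HDAC6 KO in the authors' deposited table (p = 0.003). The 5 higher sites, a run over 44.8 kb, differed by 20.18 to 40 points. The largest of them was 1037 bp inside the 3′ end of the gene at position 122626173, with 20% and 60% in the authors' deposited table (p = 0.00335). At position 122661232 the authors' deposited table gave 0% in WT and 23.5% in HDAC6 KO (p = 0.00135). Position 122670949 had 77.6% and 97.7% in the authors' deposited table (p = 0.00425). The gain in 5mC was thus found both at CpGs listed at 0% 5mC in WT and at CpGs already mostly methylated. Of those at 0% 5mC, position 122656273 had 18.2% 5hmC in WT in the authors' deposited table.

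5hmC at Cbfa2t3 was higher at 8 and lower at 11 sites. Position 122626577, 1441 bp inside the 3′ end, had 8.47% in WT and 48.6% in HDAC6 KO in the authors' deposited table (p = 7.23e-07, q = 0.00761), the smallest q of all 85 listed sites of the 6 genes. It is close to the 5mC site at 122626173, which was also higher. Toward the promoters 2 further sites were higher with comparatively small q. The authors' deposited table gave 2.04% and 33.3% at position 122693939 (p = 6.42e-05, q = 0.271), between the 2 starts. Also between the starts, position 122682566 had 2.86% and 45.8% in the authors' deposited table (p = 8.05e-05, q = 0.313). The third 5hmC site between the starts was lower, at 27.0% in WT and 0% in HDAC6 KO in the authors' deposited table.

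In the middle of Cbfa2t3 5hmC was mostly lower. There were 2 runs of 4 lower sites, over 17.1 kb and 6.58 kb, with 1 higher site between them. The authors' deposited table gave 42.3% in WT and 0% in HDAC6 KO at position 122668384 (p = 0.00363). It gave 40.6% and 4.76% at position 122662488 (p = 0.00402, the authors' deposited table). The higher site between the runs, position 122661627, had 0% and 34.8% in the authors' deposited table (p = 0.00376). Of the 10 sites not named here, 4 were higher by 16.33 to 28.57 points and 6 lower by 23.33 to 28.12 points. Among the 6, the pair at positions 122646472 and 122646474 lies 2 bp apart.

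**Figure D3:**
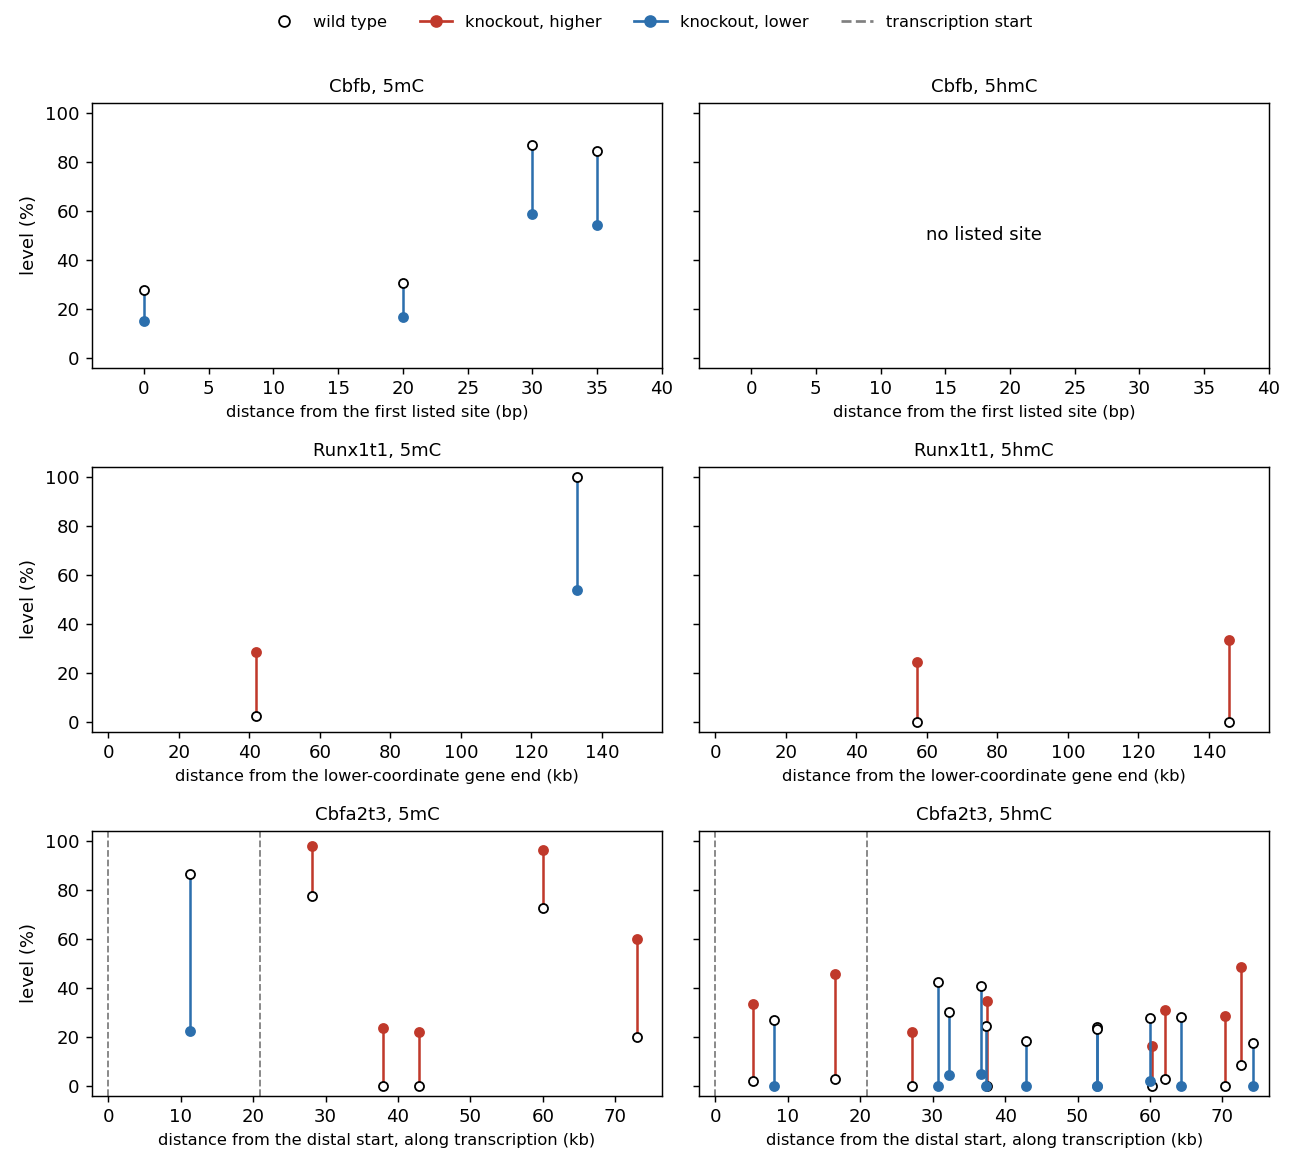
Levels in percent (vertical axis) at each listed CpG of Cbfb, Runx1t1 and Cbfa2t3, with 5mC on the left and 5hmC on the right; open circles are WT and filled circles HDAC6 KO (red higher, blue lower), with 1 library per genotype and assay. The horizontal axis is bp from the first listed site for Cbfb, kb from the lower-coordinate gene end for Runx1t1 and kb from the distal start for Cbfa2t3, where dashed lines mark starts; the 4 Cbfb sites, all blue, step from about 30.4 to 86.8% in WT.

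At 9 CpGs of the 6 genes both marks were listed, 6 of them in Runx3, 2 in Cbfa2t3 and 1 in Runx1. These are 32.1% of the 28 5mC sites and 15.8% of the 57 5hmC sites, beside 23.7% of all listed 5mC sites that were also listed for 5hmC. The marks differed in opposite directions at all 9. So they did at 99.9% of the 12608 positions common to both whole tables, so the opposition is general to these tables. At 6 of the 9, 5mC was higher and 5hmC lower in HDAC6 KO, and at 3 the reverse. Over the 12608 positions the reverse prevailed, with 3579 and 9015 positions.

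The sum of both levels changed little where the marks exchanged. Over the 9 CpGs the median size of the difference was 35.4 points for 5mC, 36.11 points for 5hmC and 4.51 points for their sum, and over all common positions 38.46, 35.71 and 3.83 points. In Runx3, position 135136862 went from 38.9% to 74.3% in 5mC and from 36.1% to 0% in 5hmC between WT and HDAC6 KO in the authors' deposited table, and the sum differed by -0.71 points. Position 135133905 showed the exchange the other way, from 95% to 58.3% in 5mC and from 0% to 41.2% in 5hmC in the authors' deposited table, with sums of 95% and 99.5%. Position 135126556 did the same, with 5mC of 72.2% and 35.7% beside 5hmC of 2.78% and 45.5% in the authors' deposited table (5hmC p = 0.000105, q = 0.373). The third Runx3 site of this kind, 135155353, had 5mC of 91.1% and 60.5% beside 5hmC of 3.23% and 36.8% in the authors' deposited table. All 3 CpGs with less 5mC and more 5hmC in HDAC6 KO were in Runx3.

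The other common CpGs had more 5mC and less 5hmC. Before the proximal start of Runx3, position 135150385 had 5mC of 26.1% and 73.3% beside 5hmC of 38.9% and 0% in the authors' deposited table. Position 135151420 had 5mC of 57.6% and 85.2% beside 5hmC of 21.2% and 0% in the authors' deposited table. The CpG 9 bp beyond it was lower in 5hmC too and was not listed for 5mC. In Cbfa2t3, position 122639137 had 5mC of 72.5% and 96.2% beside 5hmC of 27.5% and 1.82% in the authors' deposited table (5mC p = 0.00034). Position 122656273 had 5mC of 0% and 22% beside 5hmC of 18.2% and 0% in the authors' deposited table. At Runx1 the only common CpG, 92649350, had 5mC of 43.8% and 100% beside 5hmC of 42.9% and 0% in the authors' deposited table, and there the sum differed most, by 13.39 points.

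Bisulfite reads both marks alike and an oxidation step leaves 5mC alone to be read, so 5hmC is usually obtained as a difference of libraries and the 2 deposited levels of a CpG may share reads. The libraries behind each deposited level, and whether the 2 assays of a genotype used the same cells, were not given in the sources used here. Sampling of the shared library and an exchange of marks in the cells cannot be told apart with 1 library each.

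**Figure D4:**
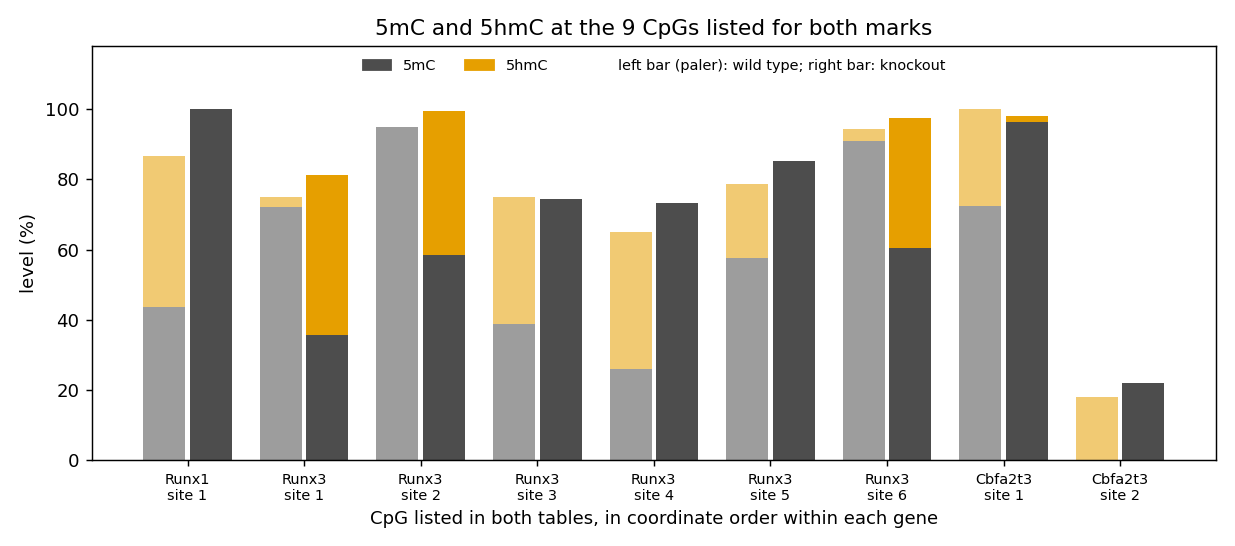
Stacked 5mC (grey) and 5hmC (orange) levels in percent (vertical axis) at the 9 CpGs listed for both marks, in coordinate order within each gene (horizontal axis), with WT as the paler left bar and HDAC6 KO as the right bar, with 1 library per genotype and assay. The bars of a pair reach similar heights, with sums that differ by 0.71 to 13.39 points, while the grey and orange parts exchange.

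Other genes of the RUNX pathway held listed sites in both directions as well. Of 55 such genes, 32 had a listed 5mC site and 39 a listed 5hmC site, beside 47.1% and 53.7% of all protein-coding genes. For protein-coding genes of 40 kb or more the shares were 75.8% and 78%. The 55 genes run from 0.949 kb (Pf4) to 319 kb (Runx2), and no share given for the pathway lists was matched for length. In HDAC6 KO 48 of their 105 5mC sites (45.7%) and 101 of their 176 5hmC sites (57.4%) were higher, beside 40.3% and 64.4% of all listed sites. The median differences were -18.18 points for 5mC and 20.64 points for 5hmC, beside -23.26 and 22.22 points over the whole tables. Runx2, the bone-forming member of the family, held 18 sites in each table, 14 of the 5mC sites and 9 of the 5hmC sites being higher. Its 5hmC site with the smallest p, position 44567474, had 65.4% in WT and 0% in HDAC6 KO in the authors' deposited table (p = 5.82e-09, q = 8.83e-05). The gene lies in a part of chromosome 17, from 24 to 52 Mb, where 1093 of the 1560 other listed 5mC sites (70.1%) were higher. RUNX proteins recruit some corepressors of the TLE family through their C-terminal end. Runx2 and 5 genes of that family together held 28 sites for 5mC, with 17 higher (60.7%), and 35 for 5hmC, with 20 higher (57.1%). Of the 17 higher 5mC sites 14 were those of Runx2, while Tle1 had 0 of 2 higher, Tle3 2 of 5 and Tle4 1 of 3. Tle2 and Tle5 had no listed 5mC site.

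The 14 genes of RUNX1 partners in blood cells held 32 sites for 5mC and 53 for 5hmC. Of these, 12 (37.5%) and 23 (43.4%) were higher, beside 40.3% and 64.4% of all listed sites. Within this list the smallest p was at Spi1, the gene of the myeloid and B-cell factor PU.1, where 5hmC was 31.0% in WT and 0% in HDAC6 KO in the authors' deposited table, at position 91096067 of chromosome 2 (p = 7.31e-06, q = 0.0541). Of 15 cofactors that bind or modify RUNX or ETO-family proteins, 5 had a 5mC site and 6 a 5hmC site, beside 47.1% and 53.7% of all protein-coding genes. Hdac1, Hdac2 and Hdac3, deacetylases of corepressor complexes, had no listed site.

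Of 20 genes regulated by RUNX factors, 12 had a listed 5mC site and 16 a listed 5hmC site, beside the same 47.1% and 53.7%. Of their sites 10 of 22 for 5mC (45.5%) and 36 of 52 for 5hmC (69.2%) were higher, beside 40.3% and 64.4% of all listed sites. Gfi1, a repressor of myeloid genes, had the smallest p, with 0% and 31.7% 5hmC at position 107721625 of chromosome 5 in the authors' deposited table (p = 5.05e-06, q = 0.0402). With a site in Runx2, it was 1 of the 2 among the 176 5hmC sites of the 55 genes with q under 0.05, a share near the 1.08% of all listed 5hmC sites. Next came Zbtb7b, the CD4-lineage factor gene repressed by RUNX proteins in T cells, with 0% and 36.6% 5hmC in the authors' deposited table (p = 1.67e-05, q = 0.103).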

How the data were processed

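Genomic DNA of LSK cells was sequenced after bisulfite or oxidative bisulfite treatment, 1 library per genotype and assay (4 libraries). Per the labels' protocols, DNA with added lambda DNA was sonicated, converted with a bisulfite kit and read by Illumina sequencing. Aligner, caller, the authors' test and any coverage filter were not given in the sources used here, and read depth is unknown. The 2 tables list single positions. Per the file headers, they hold the authors' WT and KO levels as a fraction (printed here as percent), their difference as a score from the authors, and a p-value and q-value deposited by the authors.

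The submitters' processing notes name GRCm39, while all positions here are GRCm38: of the listed positions inside RefSeq GRCm38.p6 promoter windows, 412 of 412 for 5mC and 778 of 778 for 5hmC fall on the C of a CpG. Sites were assigned to genes of the RefSeq table with a margin of 2000 bp. The table gives no exons. Strand and starts came from the promoter windows. Counts, medians and exact binomial intervals were computed with Python 3.11.15, pandas 2.3.3 and scipy 1.17.1, and site assignment was tested on simulated data. No test of the genotypes was made. Results for 1 cofactor gene and 1 lymphoid marker gene are not reported here by name. The genes, lists and alternatives were chosen with earlier results of these data known. Named sites were all sites of a gene with up to 6 in a table, and otherwise the 6 largest differences, sites with q under 0.05, sites within 2 kb of a gene end and positions in both tables.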

Additional observations from a re-analysis of the deposited data

How the results depend on the processing

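Counting gene bodies alone, a margin of 10 kb, merging positions 1 bp or up to 100 bp apart, and leaving out sites inside another gene kept the counts of listed sites within 1.5 times, at 25 to 31 for 5mC and 54 to 64 for 5hmC. Leaving out positions listed in both tables, an alternative added after the data were seen, left 19 and 48 sites. With stricter limits fewer sites were left. With p under 0.001, 5 5mC and 12 5hmC sites stayed, with differences of at least 30 points 15 and 25, and with q under 0.05, 0 and 1, the last making the higher share of 5hmC 100%. Without Runx3, which had the most sites in both tables, 18 and 37 stayed. The share of sites that were higher otherwise ranged from 40 to 60% for 5mC and from 56.1 to 64% for 5hmC, within the interval given for each. Placing the genes by another build was not run, since the gene table is of GRCm38. No paired analysis was possible because each group is 1 library. Depth is unknown, so no level has an interval, and small differences at thinly covered CpGs could not be listed at all.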

Other observations

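Genes that mark the sorted cells and their progeny were also among the listed ones, though levels at such sites do not measure expression and so do not check the sort. Of all protein-coding genes 47.1% had a listed 5mC site and 53.7% a listed 5hmC site. Of all listed sites 40.3% for 5mC and 64.4% for 5hmC were higher in HDAC6 KO, and the few marker sites were not tested against these shares. Kit, the receptor gene whose product defines the sort, had 2 5mC sites, both lower, and 9 5hmC sites, 5 of them higher. Its 5hmC site with the smallest p was at 30.3% in WT and 0% in HDAC6 KO in the authors' deposited table (p = 0.000272, q = 0.634). Ly6a, which encodes Sca-1, had 1 site per mark, with 63.2% and 100% 5mC in the authors' deposited table (p = 0.00919). Of the erythroid genes Klf1 and Hbb-bt, neither had a listed 5mC site and each had 1 5hmC site, both higher. The myeloid genes Mpo and Elane had 2 5mC sites in opposite directions and 3 5hmC sites, 2 of them higher. At Elane a single CpG was listed for both marks, with 5mC of 98.1% and 74.4% beside 5hmC of 0% and 17.9% in the authors' deposited table. The lymphoid gene Cd3e had 4 5mC sites, 3 of them lower, and 1 5hmC site, which was lower. The targeted gene, Hdac6, had 2 sites per mark, all lower in HDAC6 KO. The deleted part of the gene was not given in the sources used here, and these sites do not check the genotype.

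The deposited levels of the 2 marks do not always add up to a possible total. Over the 12608 positions in both tables, the sum of 5mC and 5hmC exceeded 100% by more than 0.01 points at 350 positions in WT (2.78%) and 750 in HDAC6 KO (5.95%). None of the 9 common CpGs of the RUNX genes and their cofactors was among them. At 2 of the 9 in WT and 1 in HDAC6 KO the 5mC level lay below the 5hmC level, as in Cbfa2t3 at position 122656273 with 0% 5mC and 18.2% 5hmC in WT in the authors' deposited table. Over all 12608 positions the 5mC level lay below the 5hmC level at 1123 in WT and 3688 in HDAC6 KO. A level that reads both marks would not lie below a 5hmC level taken from the same reads. Which libraries gave each level is not known, and what the deposited 5mC level holds was not tested.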
